A study of Mus musculus with 8 samples.

Results

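The 9 genes described here belong to the interleukin 1 (IL-1) family and its receptors, among them Il1rl1, which encodes ST2. They were chosen by gene name, and all 9 have a row in the deposited table of 25766 entries. They are the ligand genes Il1a, Il1b, Il18 and Il33, the antagonist gene Il1rn, and the receptor genes Il1r1, Il1r2, Il1rap and Il1rl1.

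The values come from RNA-seq of 8 subcutaneous tumors, 4 with the genotype shXBP1 and 4 with the genotype shNT. Every tumor grew from MC38-OVA cells, which derive from a colon adenocarcinoma of the mouse and carry the model antigen ovalbumin, in a C57BL/6J mouse (female, and written C57BL/5J in the treatment protocol). shXBP1 names a hairpin against Xbp1, which encodes a factor that drives transcription when the endoplasmic reticulum is under stress, and shNT names the control hairpin. The hairpins were in the injected cells. The age of the mice, the time of growth and whether a hairpin line is 1 clone are not stated in the labels. The labels do not tie each tumor to its own mouse, and the p-values below then reflect the variation among these samples only, which may be technical. Whole tumors were used, so in every result below fewer cells of a type and less RNA per cell cannot be told apart.

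IL-1 alpha and IL-1 beta bind the receptor IL1R1, which then recruits the accessory protein IL1RAP and signals through MYD88 to NF-kappaB. The receptor antagonist, encoded by Il1rn, occupies IL1R1 without signalling, and the type 2 receptor, encoded by Il1r2, binds IL-1 as a decoy. IL-33, an alarmin kept in the nuclei of stromal and epithelial cells, signals through ST2 paired with the same accessory protein, and IL-18 uses a receptor pair of its own. In tumors, IL-1 beta is known as a product of myeloid cells, and ST2 is known on mast cells, group 2 innate lymphoid cells and a subset of regulatory T cells. A soluble form of ST2 that binds IL-33 is made from the same gene.

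In shXBP1 tumors 7 of the 9 genes rose, Il1rap fell and Il18 did not pass. Il33 had the highest log2 fold change of the 9, at 4.36-fold, followed by Il1b at 3.10-fold, Il1r2 at 2.72-fold, Il1rl1 at 2.64-fold and Il1rn at 2.58-fold. Il1r1 was 1.74-fold and Il1a 1.60-fold higher, while Il1rap was 1.71-fold lower. The calls use the quasi-likelihood test of edgeR with a Benjamini-Hochberg adjusted p below 0.05 over all 14907 genes tested. By this rule 16.9% of the genes tested were called higher, 13.1% were called lower and 30.0% were called in either direction. The median log2 fold change was 1.36 over the 9 members and -0.01 over all genes tested. All 9 members passed the filter on low counts. The groups did not overlap for the 8 members that passed, against 30.2% of all genes tested.

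Total counts per tumor lay between 29070605 and 36012997. In CPM, the counts of a gene scaled to a common library size, Xbp1 was 1.43-fold lower (70.9 ± 9.61 CPM in shXBP1 and 101 ± 5.96 CPM in shNT tumors, SD, n = 4 each), in the direction of the labels. Ptprc, the pan-leukocyte gene for CD45, stood at 156, 193, 171 and 94.8 CPM in shXBP1 tumors 1 to 4 and at 59.4, 42.6, 66.5 and 56.4 CPM in shNT tumors 1 to 4. shXBP1 tumor 4 therefore had the lowest Ptprc of its group. Of 10 colon epithelial and carcinoma markers 6 were below the filter, and Cdx1 and Cdx2 had 0 counts in all 8 tumors.

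Il1b, the gene of the secreted cytokine IL-1 beta (ENSMUSG00000027398, GRCm38 chromosome 2, 129364570 to 129371139, minus strand), stood at 82.4, 104, 78.3 and 82.6 CPM in shXBP1 tumors 1 to 4, against 29.4, 24.9, 24.9 and 32.5 CPM in shNT tumors 1 to 4. Every shXBP1 tumor lay at more than 2 times the level of every shNT tumor. The log2 fold change was 1.63 (SE 0.12, edgeR adjusted p = 4.69e-06), the smallest adjusted p of the members. The authors' deposited table gives 1.60.

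Il1a, the gene of IL-1 alpha, a cell-associated alarmin, lies beside Il1b on the minus strand of chromosome 2 (129299610 to 129309972), and both genes fit within 71.5 kb. It stood at 6.60, 8.90, 6.44 and 7.82 CPM in shXBP1 tumors 1 to 4, against 6.05, 5.05, 3.95 and 3.55 CPM in shNT tumors 1 to 4. The groups came close to each other, with shXBP1 tumor 3 just above shNT tumor 1. On the log2 scale the difference was 0.68 (SE 0.20, edgeR adjusted p = 0.0215). This call was lost without shXBP1 tumor 2 (adjusted p = 0.0665), shNT tumor 3 (0.0624) or shNT tumor 4 (0.0594). Exons of Il1a overlap the plus-strand gene Gm14023 and exons of Il1b the antisense gene Il1bos, whose reads cannot be told apart from those of the members because the strand setting of the counting is not given.

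Il33 (ENSMUSG00000024810, chromosome 19, 29925114 to 29960718, plus strand) had few reads, with 125, 170, 106 and 127 counts in shXBP1 tumors 1 to 4, against 14, 17, 53 and 27 counts in shNT tumors 1 to 4. As CPM these are 3.98, 5.46, 3.06 and 3.4 in shXBP1 tumors, against 0.441, 0.536, 1.84 and 0.842 in shNT tumors. shNT tumor 3 stood above the other shNT tumors and below every shXBP1 tumor. edgeR gave a log2 fold change of 2.13 (SE 0.40, adjusted p = 0.0021), with a 95% interval from 1.25 to 3.0. Without shNT tumor 3 it was 2.71, and without any of the other tumors it lay between 1.90 and 2.23. The authors' deposited table gives 1.66.

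Il18, the gene of a cytokine that acts with IL-12 on lymphocytes (ENSMUSG00000039217, chromosome 9, 50554827 to 50581840, plus strand), stood at 6.05, 7.52, 7.02 and 5.01 CPM in shXBP1 tumors 1 to 4, against 4.35, 3.41, 4.96 and 5.64 CPM in shNT tumors 1 to 4. The groups overlapped, since shXBP1 tumor 4 lay below shNT tumor 4. The fitted log2 fold change was 0.48 (SE 0.20, edgeR adjusted p = 0.087), with a 95% interval from 0.05 to 0.91 before adjustment. Without shXBP1 tumor 4 it was 0.59 and passed (adjusted p = 0.0338).

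**Figure D1:**
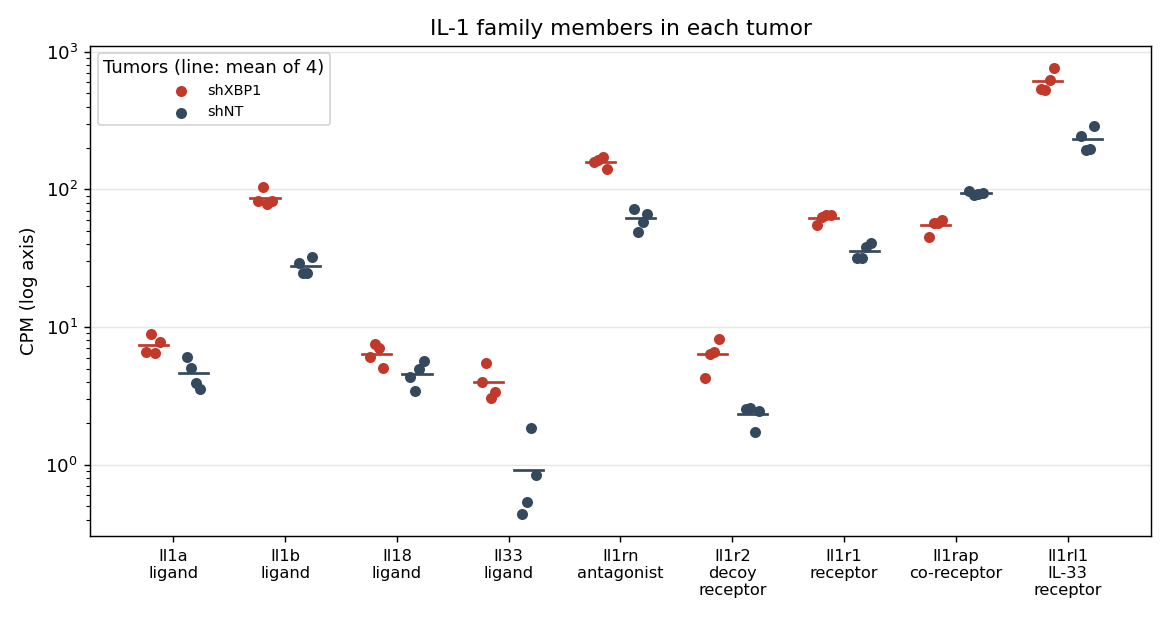
Level (CPM, log axis) of the 9 members in each tumor, with the 4 shXBP1 tumors left of the 4 shNT tumors for each gene and a line at the mean. The shXBP1 points lie above all shNT points for 7 genes, below them for Il1rap, and among them for Il18.

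Il1rn, the antagonist gene (ENSMUSG00000026981, chromosome 2, 24336853 to 24351494, plus strand), stood at 159, 163, 172 and 140.0 CPM in shXBP1 tumors 1 to 4, against 72.7, 49.4, 58.3 and 65.9 CPM in shNT tumors 1 to 4. The lowest shXBP1 tumor, tumor 4, was far above the highest shNT tumor. The log2 fold change was 1.36 (SE 0.12, edgeR adjusted p = 1.25e-05). GENCODE M21 lists coding transcripts of Il1rn of 178, 162, 159 and 52 codons, which gene counts do not separate.

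Il1r2, the decoy receptor gene (ENSMUSG00000026073, chromosome 1, 40074079 to 40125231, plus strand), stood at 4.30, 6.33, 6.64 and 8.14 CPM in shXBP1 tumors 1 to 4, against 2.55, 2.59, 1.73 and 2.46 CPM in shNT tumors 1 to 4. All shXBP1 tumors were higher, tumor 4 the most. On the log2 scale the difference was 1.44 (SE 0.23, edgeR adjusted p = 0.000637).

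Il1r1, the signalling receptor for IL-1 (ENSMUSG00000026072, chromosome 1, 40225080 to 40317257, plus strand), stood at 54.8, 62.7, 65.7 and 65.5 CPM in shXBP1 tumors 1 to 4, against 32.0, 31.9, 38.1 and 41.0 CPM in shNT tumors 1 to 4. Both groups were tight and apart from each other. edgeR gave a log2 fold change of 0.80 (SE 0.10, adjusted p = 0.00018).

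Il1rap, the accessory chain that IL-1, IL-33 and IL-36 receptors share (ENSMUSG00000022514, chromosome 16, 26581704 to 26730117, plus strand), went the other way. It stood at 45.0, 57.4, 57.5 and 59.7 CPM in shXBP1 tumors 1 to 4, against 98.2, 91.3, 92.2 and 94.0 CPM in shNT tumors 1 to 4. shXBP1 tumor 1 was the lowest, and the shNT tumors had an SD of 3.05 CPM (n = 4). The fitted log2 fold change was -0.77 (SE 0.09, edgeR adjusted p = 0.000123). GENCODE M21 lists complete protein-coding forms of 685, 640, 570 and 360 codons, which gene counts do not separate, and exons of the antisense gene Gm20319 overlap those of Il1rap.

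Il1rl1, the ST2 gene (ENSMUSG00000026069, chromosome 1, 40429570 to 40465415, plus strand), stood at 537, 525, 619 and 760.0 CPM in shXBP1 tumors 1 to 4, against 245, 192, 197 and 290.3 CPM in shNT tumors 1 to 4. In each group tumor 4 was the highest, and the groups lay far apart. The log2 fold change was 1.40 (SE 0.15, edgeR adjusted p = 0.000101). Ptprc was lowest of its group in shXBP1 tumor 4, which had the highest Il1rl1 and Il1r2 of all tumors. The same tumor had the highest Acta1 and Myh1, skeletal muscle genes. Acta1 was at 8.92, 4.56, 11.6 and 28.2 CPM in shXBP1 tumors 1 to 4 and at 4.23 to 9.01 CPM in shNT tumors, and the sum of 6 muscle markers was 16.1 to 70.2 CPM in shXBP1 and 9.67 to 30.3 CPM in shNT tumors. The adipocyte gene Cfd was at 4.39 CPM in shXBP1 tumor 4 and at 0.701 to 2.15 CPM in the other shXBP1 tumors, against 0 to 0.914 CPM in shNT tumors. Of the muscle markers Ckm and Tnnt3 were also highest in shXBP1 tumor 4, while Mb was highest in shXBP1 tumor 2 and Myh4 in shNT tumor 1. Of the adipocyte markers Adipoq was also highest in shXBP1 tumor 4. Fabp4 was highest in shXBP1 tumor 2, and Plin1 and Lep in shNT tumor 2. The sum of 5 adipocyte markers was 23.1 to 30.9 CPM in shXBP1 and 11.2 to 17.0 CPM in shNT tumors. The neutrophil markers S100a8 (4.74 CPM), S100a9 (8.65 CPM), Cxcr2, Mmp8 and Ly6g were also highest in shXBP1 tumor 4. Csf3r was highest in shXBP1 tumor 1, Retnlg in shXBP1 tumor 2 and Camp in shNT tumor 4. Of the fibroblast markers Pdgfra (149 CPM) and Col1a1 (212 CPM) were highest in shXBP1 tumor 4. Pdgfrb was highest in shXBP1 tumor 1, Col3a1, Dcn and Lum in shXBP1 tumor 2, and Col1a2 and Fap in shNT tumor 4. Acta1, Myh1, Cfd and these markers were chosen after their values were seen. The part of these tissues and cells in the members' levels was not tested.

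Il1rl1 has a pair of annotated promoters, and their sequences are shown because Il1rl1 was the most abundant member and a gene count shows neither which promoter nor which form of ST2 was used. In GENCODE M21 the 4 complete coding transcripts of Il1rl1 encode either 567 codons, the membrane receptor, or 337 codons, the soluble form. A 337-codon transcript starts at the upstream promoter (40429570) and another near the downstream one (40439776), while the 567-codon transcripts start at 40439627 and 40440628. The windows are the 250 bases before each RefSeq start (GRCm38.p6, plus strand), chr1:40429320-40429569 and chr1:40439379-40439628, and capitals mark a match to a searched motif.
Il1rl1 upstream promoter: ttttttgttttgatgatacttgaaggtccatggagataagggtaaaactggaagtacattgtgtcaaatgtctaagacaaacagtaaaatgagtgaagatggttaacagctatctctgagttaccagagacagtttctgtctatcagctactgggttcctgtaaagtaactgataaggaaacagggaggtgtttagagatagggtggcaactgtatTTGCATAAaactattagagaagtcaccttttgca
Il1rl1 downstream promoter: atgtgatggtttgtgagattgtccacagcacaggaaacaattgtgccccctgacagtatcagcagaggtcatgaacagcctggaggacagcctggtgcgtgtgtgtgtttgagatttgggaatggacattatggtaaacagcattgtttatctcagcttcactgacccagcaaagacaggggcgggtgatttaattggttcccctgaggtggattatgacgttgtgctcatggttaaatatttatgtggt
The capitals in the upstream window are a C/EBP match (TTGCNNAA on either strand) that ends 27 bases before the start.

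The promoters of the IL-1 ligand and antagonist genes that rose are shown because these genes rose together, with the windows chr2:129371140-129371389 (Il1b, minus strand), chr2:129309973-129310222 (Il1a, minus strand) and chr2:24336610-24336859 (Il1rn, plus strand, the first of its 3 RefSeq starts).
Il1b: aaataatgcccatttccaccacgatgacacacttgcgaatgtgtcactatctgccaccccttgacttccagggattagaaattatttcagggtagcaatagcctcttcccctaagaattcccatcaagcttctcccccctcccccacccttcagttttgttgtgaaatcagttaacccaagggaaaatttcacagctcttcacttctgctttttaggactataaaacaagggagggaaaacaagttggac
Il1a: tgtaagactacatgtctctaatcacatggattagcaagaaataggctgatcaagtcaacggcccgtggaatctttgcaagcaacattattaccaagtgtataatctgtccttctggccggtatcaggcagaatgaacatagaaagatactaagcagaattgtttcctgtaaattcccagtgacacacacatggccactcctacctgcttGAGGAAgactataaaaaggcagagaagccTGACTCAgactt
Il1rn: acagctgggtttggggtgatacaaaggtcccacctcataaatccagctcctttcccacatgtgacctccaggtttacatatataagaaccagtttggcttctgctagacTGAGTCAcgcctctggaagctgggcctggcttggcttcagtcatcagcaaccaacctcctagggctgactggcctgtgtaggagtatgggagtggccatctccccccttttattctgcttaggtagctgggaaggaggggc
RefSeq gave 14 such windows for the 9 members. Both strands were searched for AP-1 (TGANTCA), C/EBP, the PU.1 and ETS core (GAGGAA), the core of XBP1 and unfolded protein response sites (TGACGTG) and the kappaB consensus, whose matches may overlap. AP-1 letters were in 2 of 14 windows, those of Il1a and of the first start of Il1rn, against 6.75% of the 32851 windows of all genes. The windows of the later starts of Il1rn held none of the searched motifs. GENCODE M21 transcripts of Il1rn with 159 and 52 codons start near its first start. Those with 178 and 162 codons start near the later ones, at 24345310 and 24345288. C/EBP letters were in 3 windows (Il1rl1, Il1r1 and Il33), against 9.56% of all, and GAGGAA in 1 window (Il1a), against 23.3%. The kappaB consensus was in 1 window (Il1r1), against 3.90% of all, and TGACGTG in 0, against 1.65%. The window of Il1b held none of these letters, which says nothing of the factors.

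Levels of different genes were compared per length, as FPKM deposited by the authors (fragments scaled to gene length and library size). On this scale Il1rl1 was the highest member in both groups, at 188 ± 41.0 FPKM in shXBP1 and 69.1 ± 13.1 FPKM in shNT tumors (SD, n = 4 each). Only 1.5% of the 22036 annotated genes were higher in shXBP1 tumors, and 4.36% in shNT tumors. Its ligand Il33 was the lowest member, at 1.37 ± 0.332 FPKM in shXBP1 and 0.305 ± 0.221 FPKM in shNT tumors. Il1rn followed Il1rl1 in both groups, at 67.4 ± 3.69 FPKM in shXBP1 and 26.3 ± 3.38 FPKM in shNT tumors. Il1b stood at 56.5 ± 6.55 FPKM in shXBP1 and 18.1 ± 2.08 FPKM in shNT tumors, and Il1rap at 11.3 ± 1.57 FPKM in shXBP1 and 19.0 ± 0.434 FPKM in shNT tumors.

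The order of the middle members differed between the groups. In shXBP1 tumors Il1b came next after Il1rn, with a range that overlapped it, and Il1r1 (11.4 FPKM) and Il1rap (11.3 FPKM) overlapped each other. In shNT tumors Il1rap came next after Il1rn and overlapped Il1b, and Il1r1 (6.43 FPKM) lay below both without overlap. Il18 followed them in both groups, at 6.64 FPKM in shXBP1 tumors and 4.63 FPKM in shNT tumors. Il1r2 and Il1a overlapped each other in both groups, Il1r2 at 4.09 FPKM in shXBP1 and 1.44 FPKM in shNT tumors, and Il1a at 3.33 FPKM in shXBP1 and 2.08 FPKM in shNT tumors. The other neighbours in the order did not overlap.

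**Figure D2:**
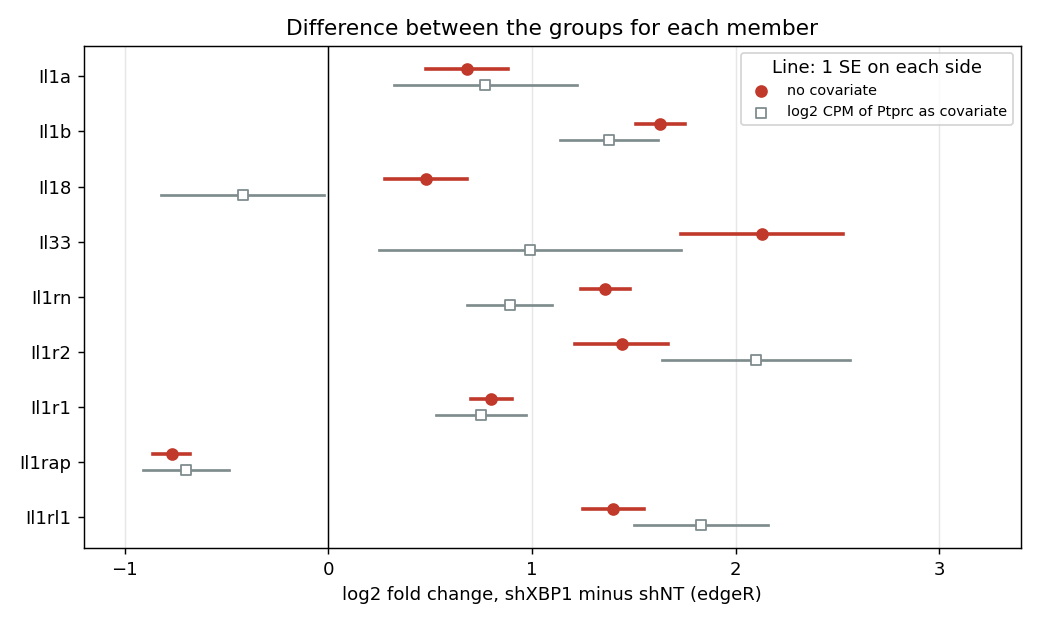
Log2 fold change of each member (shXBP1 minus shNT, edgeR) with 1 SE on each side, without a covariate (filled), and with Ptprc in the fit (open). Il1b, Il1r2 and Il1rl1 lie far above 0 in both fits, while Il18 and Il33 move the most.

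When Ptprc (log2 CPM) entered the fit as a covariate, 3 members passed. These were Il1b (log2 fold change 1.38, edgeR adjusted p = 0.0144), Il1r2 (2.10, adjusted p = 0.0354) and Il1rl1 (1.83, adjusted p = 0.0324). Il1rn (0.89, adjusted p = 0.0504), Il1r1 (0.75, adjusted p = 0.117) and Il1rap (-0.70, adjusted p = 0.125) kept their direction and did not pass. Il1a was at 0.77 (SE 0.45, adjusted p = 0.427), Il33 at 0.99 (SE 0.74, adjusted p = 0.554), and Il18 at -0.42 (SE 0.40, adjusted p = 0.658). At an unadjusted p under 0.05, 5 members were higher and 1 was lower. The share of all genes at that unadjusted threshold was not counted, so these numbers have no background beside them. By adjusted p, edgeR called 134 of all genes higher and 106 lower in that fit, and the SE of a gene was 2.26 times as large at the median.

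The balance between members was compared within each tumor, as log2 ratios of counts, with a two-sided exact permutation test over the 8 tumors, whose smallest possible p is 0.0286, adjusted over 5 ratios. Il1b exceeded Il1a by 12.5, 11.6, 12.1 and 10.5 times in shXBP1 tumors 1 to 4, against 4.85, 4.92, 6.28 and 9.11 times in shNT tumors 1 to 4. The groups did not overlap, and the log2 ratio differed by 0.94 (exact p = 0.0286, adjusted p = 0.0714). Il18 was 0.0737, 0.0728, 0.0898 and 0.0608 of Il1b in shXBP1 tumors, against 0.148, 0.137, 0.200 and 0.174 of it in shNT tumors. These groups did not overlap either, with a difference of -1.15 (exact p = 0.0286, adjusted p = 0.0714). Neither passed after adjustment, but on deposited FPKM both did, and so did Il1r2 to Il1r1 (adjusted p = 0.0476 each, exact permutation). As counts both already had the smallest possible p, so they passed on FPKM only because Il1r2 to Il1r1 reached that p too.

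The other 3 ratios overlapped between the groups and did not pass as counts. Il1rn counts were 1.93, 1.58, 2.19 and 1.70 times those of Il1b in shXBP1 tumors, against 2.47, 1.98, 2.34 and 2.03 times in shNT tumors (difference -0.26, exact p = 0.114, adjusted p = 0.143). Il1r2 was 0.0787, 0.101, 0.101 and 0.125 of Il1r1 in shXBP1 tumors, against 0.0803, 0.0815, 0.0460 and 0.0604 of it in shNT tumors (difference 0.62, exact p = 0.0857, adjusted p = 0.143). Il1rl1 exceeded Il33 by 134, 95.9, 201 and 223 times in shXBP1 tumors, against 536, 349, 106 and 339 times in shNT tumors (difference -0.89, exact p = 0.171, adjusted p = 0.171). In the last ratio the overlap came through shNT tumor 3, whose Il33 was high for its group.

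**Figure D3:**
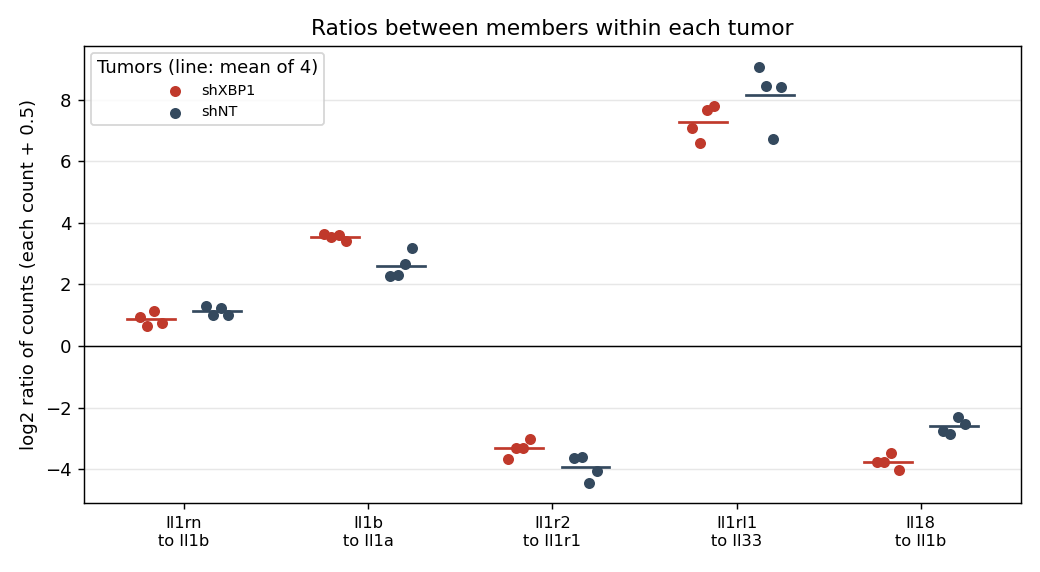
Log2 ratios of counts (each count + 0.5) between members within each tumor, with shXBP1 tumors left of shNT tumors and a line at the mean of 4. The groups are apart for Il1b to Il1a and for Il18 to Il1b, and overlap for the other 3 ratios.

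The receptor genes Il1r2, Il1r1, Il1rl2, Il1rl1, Il18r1 and Il18rap follow each other within 478 kb of chromosome 1, all on the plus strand. Of these 6 neighbours 5 rose, against 16.9% of all genes tested. Il1rl2, the IL-36 receptor gene, fell by 0.66 on the log2 scale (SE 0.19, edgeR adjusted p = 0.0209). It lies between Il1r1 and Il1rl1, which both rose. Il18r1 begins at 40465552, just past the end of Il1rl1, and had the highest log2 fold change of the cluster, 2.20 (SE 0.39, adjusted p = 0.0035). On chromosome 2, Il1f9, the IL-36 gamma gene, and Il1rn span 165 kb, with Il1f6, Il1f5 and Il1f10 between them. Il1f9 was higher (183 counts summed over the shXBP1 tumors and 33 over the shNT tumors, log2 fold change 2.29, adjusted p = 0.00718), Il1f6 and Il1f10 had 0 counts in every tumor, and Il1f5 had 2.

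Of the other receptor genes and the IL-18 binding protein gene, 4 of 6 tested rose and 2 fell (median log2 fold change 1.07). The background for this list and those below is all genes tested. Of these 16.9% rose and 13.1% fell, with a median log2 fold change of -0.01. Il18r1 stood at 18, 25.2, 26.4 and 7.02 CPM in shXBP1 tumors 1 to 4, against 4.66, 2.90, 3.99 and 5.08 CPM in shNT tumors 1 to 4. Il18bp, which neutralizes IL-18, stood at 91.3, 89.1, 80.3 and 47.0 CPM in shXBP1 tumors, against 21.6, 13.3, 22.9 and 19.4 CPM in shNT tumors (log2 fold change 2.0, SE 0.24, edgeR adjusted p = 0.000387). For both genes shXBP1 tumor 4 was the lowest of its group, as for Ptprc. Il18rap, the second chain of the IL-18 receptor, was 1.54-fold higher, and Sigirr, an inhibitory receptor of the family, fell by 0.42 (SE 0.09, adjusted p = 0.00374). The call of Il18rap was lost without shXBP1 tumor 2 (adjusted p = 0.0515), shXBP1 tumor 3 (0.0519) or shNT tumor 2 (0.0519). The number that rose was 2 without any of those tumors, and 1 fell without shXBP1 tumor 1 or 3 or shNT tumor 3.

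Of 13 tested genes for proteases and inflammasome parts that release these cytokines, 10 rose, 0 fell and 3 did not pass, with a median log2 fold change of 1.02. Nlrp3, an inflammasome sensor, stood at 19.7 ± 2.45 CPM in shXBP1 and 9.70 ± 1.29 CPM in shNT tumors (SD, n = 4 each, log2 fold change 1.02, SE 0.13, edgeR adjusted p = 0.000203). Gsdmd, the pore through which IL-1 beta leaves cells, was at 0.64 (SE 0.09, adjusted p = 0.000236), Casp4, a caspase that cleaves it, at 0.72 (SE 0.12) and Aim2, a DNA sensor, at 0.97 (SE 0.17). Casp1, which matures IL-1 beta and IL-18, stood at 28.8, 44.1, 28.2 and 14.2 CPM in shXBP1 tumors, against 9.55, 6.59, 10.4 and 8.45 CPM in shNT tumors, and was chosen after its value was seen. Elane and Prtn3, neutrophil proteases that process IL-1 family cytokines, were below the filter. With Ptprc in the fit 0 of the 13 passed. The log2 fold change was then 0.57 for Nlrp3, 0.29 for Gsdmd, 0.11 for Aim2, -0.00 for Casp4 and -0.30 for Casp1. Ctsg was at 2.57 (SE 0.66) with Ptprc in the fit and 1.89 without it, and Cma1 at 2.76 (SE 1.32) and 3.80. These 2 proteases were chosen after their values were seen.

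Of 18 tested genes of MYD88 signalling, 7 rose, Tab3 fell and 10 did not pass, around a median log2 fold change of 0.12. Those named by rule were Nfkbia, the NF-kappaB inhibitor (0.93, SE 0.09, edgeR adjusted p = 4.00e-05), Irak2, a kinase of the receptor complex (0.74, SE 0.09), Myd88 itself (0.66, SE 0.08) and Irak3, an inhibitory relative of the kinases (1.49, SE 0.25). Tab3, a kinase adaptor named here with its value known, had a log2 fold change of -0.40, and 2 genes fell without shXBP1 tumor 4. Of 20 tested IL-1 response genes, 15 rose, 2 fell and 3 did not pass, with a median of 1.27. Cxcl1, a chemokine for neutrophils, stood at 20.2, 19.9, 16.4 and 23.8 CPM in shXBP1 tumors, against 6.30, 5.87, 6.52 and 6.55 CPM in shNT tumors. Tnfaip3, a feedback inhibitor of NF-kappaB, was 2.31-fold higher, Lif, a cytokine of the IL-6 family, 2.23-fold and Nos2, inducible nitric oxide synthase, 6.19-fold. Mmp13, a collagenase, fell by 0.62 and Il11, an IL-6 family cytokine, fell by 0.56 (both chosen after their values were seen). The number of response genes that fell was 0 without shXBP1 tumor 2 or shNT tumor 1, and 1 without shXBP1 tumor 1 or 3 or shNT tumor 2 or 4. These genes also respond to other cytokines and to microbial products.

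**Figure D4:**
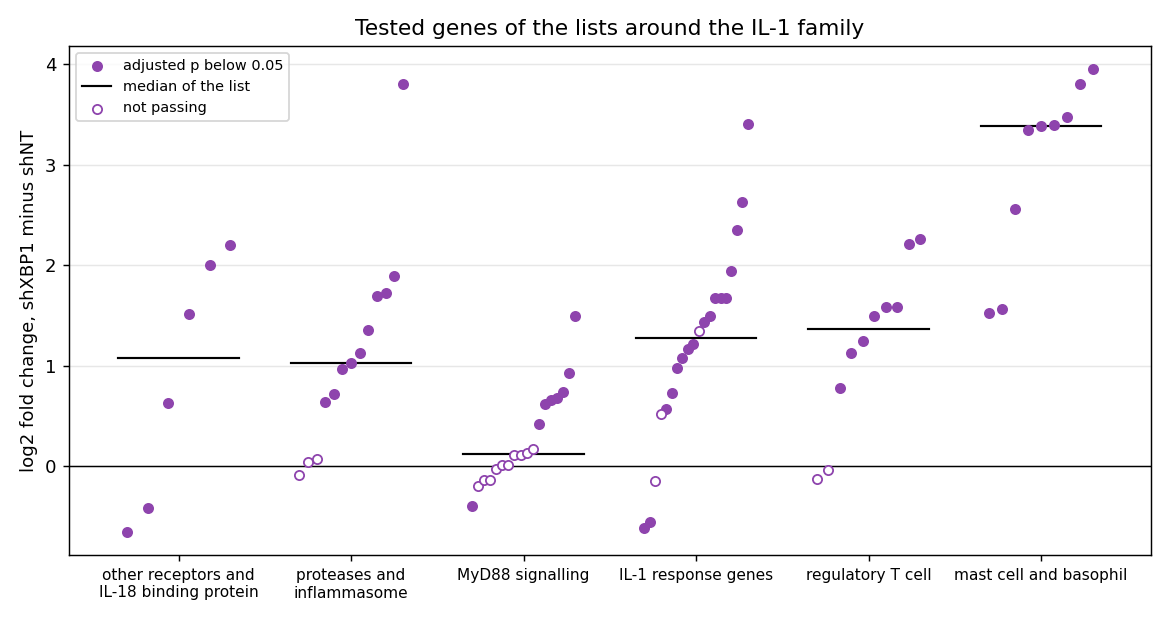
Log2 fold change (shXBP1 minus shNT) of each tested gene in 6 lists around the IL-1 family, sorted within a list, with called genes filled and a line at the median. The mast cell and basophil list has the highest median, 3.38, and MyD88 signalling the lowest, 0.12.

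Genes of 2 of the cell types known to carry ST2, mast cells and regulatory T cells, were examined next. Of 9 tested mast cell and basophil genes, all 9 rose, with a median log2 fold change of 3.38. Cma1 of this list is also in the list of proteases. A gene can pass the filter on low counts through the shXBP1 tumors alone. Mcpt8 did so, with 14, 15, 11 and 33 counts in shXBP1 tumors 1 to 4, against 0, 2, 0 and 4 counts in shNT tumors 1 to 4. With no filter, 10 of 11 genes of the list were called higher. The summed level of the 11 genes was 50.6 to 109 CPM in shXBP1 tumors, against 6.55 to 12.4 CPM in shNT tumors. Cpa3, a mast cell carboxypeptidase, stood at 7.78, 16.4, 20.6 and 10.8 CPM in shXBP1 tumors 1 to 4, against 1.39, 0.631, 0.104 and 1.43 CPM in shNT tumors 1 to 4. Mcpt4, a mast cell chymase, was 10.1-fold higher, Tpsb2, a tryptase, 10.5-fold and Kit, the stem cell factor receptor, 2.95-fold. In shXBP1 tumors these genes lay at 8.44 ± 3.35 FPKM for Cpa3, 7.90 ± 2.64 for Mcpt4, 12.9 ± 4.43 for Tpsb2 and 1.27 ± 0.276 for Kit (SD, n = 4), below the 188 FPKM of Il1rl1. These genes, Cma1 and Fcer1a were highest in shXBP1 tumor 3, and Il1rl1 in shXBP1 tumor 4. Of the same list, Hdc (6.88 CPM), Mcpt8 (0.884 CPM) and Prss34 were also highest in shXBP1 tumor 4. Tpsab1 was highest in shXBP1 tumor 1, and Ms4a2 in shXBP1 tumor 2. The part of mast cells and basophils in the level of Il1rl1 was not tested.

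Of 10 tested genes of regulatory T cells, 8 rose, 0 fell and Areg and Gata3 did not pass, with a median log2 fold change of 1.36. Klrg1, a receptor of differentiated T cells, stood at 8.89, 7.97, 13.7 and 13.2 CPM in shXBP1 tumors, against 2.39, 1.86, 2.53 and 2.34 CPM in shNT tumors. Ctla4, an inhibitory receptor, was at 10.2 ± 1.70 CPM in shXBP1 and 3.41 ± 1.01 CPM in shNT tumors, and Il2ra, an IL-2 receptor chain, at 12.8 ± 2.52 CPM in shXBP1 and 4.55 ± 1.66 CPM in shNT tumors (SD, n = 4 each). Tnfrsf9, a costimulatory receptor, was at 88.5 ± 9.60 CPM in shXBP1 and 40.6 ± 7.39 CPM in shNT tumors. Foxp3, the lineage factor, was at 0.660 ± 0.258 FPKM in shXBP1 and 0.361 ± 0.0726 FPKM in shNT tumors (chosen after its value was seen). Tnfrsf9 was at 38.2 ± 5.93 FPKM in shXBP1 and 17.7 ± 2.41 FPKM in shNT tumors. General T cell markers rose too, 7 of 7, and whether this list reflects regulatory or other T cells was not tested.

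Markers of other cells that can make or receive these cytokines moved in the same tumors. The summed level of 7 T cell markers was 85.9 to 259.7 CPM in shXBP1 tumors, against 28.2 to 56.6 CPM in shNT tumors, and 7 of 7 rose. For 10 macrophage and monocyte markers it was 2573 to 4998 CPM in shXBP1 tumors, against 1568 to 2186 CPM in shNT tumors, and 9 of 10 rose. For 9 neutrophil markers the sum was 26.7 to 35 CPM in shXBP1 tumors, against 7.45 to 12.9 CPM in shNT tumors; 4 of 5 tested rose, Ngp had 0 counts and Retnlg, Ly6g and Camp were below the filter. For 8 fibroblast markers it was 6052 to 8152 CPM in shXBP1 tumors, against 1875 to 3162 CPM in shNT tumors, with 5 of 8 higher and 3, Col1a1 and Col1a2 among them, not passing. Most of that sum was Col3a1 (5165 ± 704 CPM in shXBP1 and 1579.6 ± 413 CPM in shNT tumors) and Dcn (1041 ± 309.9 CPM in shXBP1 and 305 ± 41.3 CPM in shNT tumors, SD, n = 4 each), while Col1a1 and Col1a2 overlapped between the groups. For 6 endothelial markers it was 88.2 to 101 CPM in shXBP1 tumors, against 43.4 to 52.3 CPM in shNT tumors, with 3 of 6 higher. The summed level of 7 skin keratinocyte markers was 50.1 to 56.0 CPM in shXBP1 tumors, against 148 to 210.2 CPM in shNT tumors, nearly all of it Krt14. The less abundant Krt5 had 37, 96, 0 and 8 counts in shXBP1 tumors 1 to 4, against 0, 0, 0 and 3 counts in shNT tumors 1 to 4. Krt1 and Lor had 22 and 21 counts in shXBP1 tumor 2 and 0 in every other tumor. Trp63 was also highest in shXBP1 tumor 2, with 38 counts. In contrast, Krt10 (2.42 CPM) and Dsg3 (8 counts) were highest in shXBP1 tumor 1, and Krt14 in shNT tumor 4 (208 CPM). shXBP1 tumor 2 also had the highest Il33 and Il1a of all tumors. The single markers named here were chosen after their values were seen. The part of these cells in the members' levels was not tested.

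The genes whose profiles over the 8 tumors were most like those of the members were found by the root mean square difference of log2 CPM. Each profile was centred on its mean over all 8 tumors, and 12456 genes with at least 1 CPM were compared. The difference between the groups is thus part of the likeness, and genes with a similar log2 fold change come out near. For Il1rn (1.36) the nearest gene had a log2 fold change of 1.31. For Il1rl1 these were Zfp36 (0.153), Gadd45b (0.156) and Itgb3 (0.159). For Il1b they were Xpnpep2 (0.113), Acta2 (0.135) and Btg2 (0.148), and for Il1rn Slc37a2 (0.0945), Acta2 (0.104) and Plin2 (0.114). Il33 had no gene as close, with C3 (0.352), Rarres2 (0.372) and Stap1 (0.384) the nearest. The nearest genes to Il1a, Il1r1, Il1r2, Il1rap and Il18 were Gpr155 (0.171), Tnfsf9 (0.0716), Fgf7 (0.205), Ammecr1 (0.0994) and Fam241a (0.0864).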

How the data were processed

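RNA-seq of 8 tumors was analysed from 1 table with counts and FPKM columns, as its headers name them. The counts were deposited as whole numbers without normalization, and the FPKM were made by the authors. The deposited comparison came from DESeq2, going by the file headers. The submitters' processing notes name the build GRCm38; aligner, counting tool, strand setting and annotation were "not given in the sources used here". Coordinates come from GENCODE M21, which held 22022 of the 22036 annotated identifiers, and promoter sequences from RefSeq (GRCm38.p6). Where 1 symbol had several identifiers (21 symbols), the one with the highest total was used.

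Counts were filtered with filterByExpr, which left 14907 genes, scaled by TMM factors (0.980 to 1.04) and compared with edgeR's robust quasi-likelihood test (version 4.0.16, R 4.3.3), two-sided, with Benjamini-Hochberg adjustment and a threshold of 0.05. Log2 fold changes are shXBP1 minus shNT. Log2 CPM used a prior count of 2, and ratios added 0.5 to each count. The procedure was tested on simulated data. Tumors of 1 group were compared for repeats of a library, and their chi-square was at least 15.5 times its degrees of freedom, so none was found. Members, gene lists and tests were chosen with earlier results of these data known. The named genes are the members, Xbp1, Ptprc, up to 4 genes with the smallest p from every list, and the 3 genes most like a member. The IL-36 genes have rows only under their older names (Il1f5 and the like). Alternatives were DESeq2 (1.42.0), limma voom (3.58.1), RLE factors, other filters, a replicate block, a Ptprc covariate and leaving out each tumor.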

Additional observations from a re-analysis of the deposited data

Results flagged for a closer look

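In 6 of 86 groups of 4 values, 1 tumor lay far from the other 3 by Dixon's criterion, which chance alone meets in about 1 of 20 groups. Among the members, Il1rap in shXBP1 tumor 1 was at 45.0 CPM, with the other shXBP1 tumors at 57.4 to 59.7 CPM. Il1r2 in shNT tumor 3 was at 1.73 CPM, with the other shNT tumors at 2.46 to 2.59 CPM. Tpsb2, a mast cell tryptase, was at 24.1 CPM in shXBP1 tumor 3 and at 12.5 to 14.5 CPM in the others of its group. Ctla4 was at 7.65 CPM in shXBP1 tumor 1 and at 10.9 to 11.3 CPM in the others. Kit was at 2.0 CPM in shNT tumor 4 and at 2.68 to 2.81 CPM in the others, and Lif at 22.0 CPM in shNT tumor 1 and at 18.1 to 18.7 CPM in the others.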

How the results depend on the processing

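Of the 131 member values under alternatives, 121 kept their direction and their side of the threshold. DESeq2, limma voom, RLE factors and no filter each called 7 members higher and 1 lower, and so did the fit with the tumor number as a replicate block (Il1b 1.63, Il1rl1 1.41, Il33 2.26). The tumor numbers pair no samples (correlations of -0.0739, -0.141, -0.0247 and -0.0597 between same-numbered tumors), and with the block 2040 of all genes were higher and 1304 lower. The ratios in pairs (block) cannot pass, since the smallest p of 4 pairs is 0.125. A filter of 10 CPM in 4 libraries left 5 members, 4 called higher. With the Ptprc covariate 3 members were higher and 0 lower, and 134 of all genes were higher and 106 lower. In that fit the estimates of Il18 (-0.42, SE 0.40), Il18r1 (-0.36, SE 0.42), Il18rap (-0.23, SE 0.31) and Casp1 (-0.30, SE 0.27) were below 0. So were those of Nlrc4 (-0.98, SE 0.65), Casp4 (-0.00, SE 0.17), Pycard (-0.01, SE 0.26) and Peli1 (-0.03, SE 0.22). Without the covariate they were above 0, and all are members or called genes of the pathway lists. Their smallest unadjusted edgeR p was 0.154 (Nlrc4), so no reversal is shown. The cause was not tested. In that fit 5 IL-1 response genes, 1 regulatory T cell gene and 1 mast cell gene were higher, and 0 genes of MYD88 signalling, the other receptors, or the proteases and inflammasome. With the 10 CPM filter, 2 other receptors, 6 proteases and inflammasome genes, 2 regulatory T cell genes and 1 mast cell gene were higher, and the number of IL-1 response genes that fell was 0, against 1 with limma voom, no filter or the block.

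From deposited FPKM + 0.1, the ratios of Il1b to Il1a (0.96), Il1r2 to Il1r1 (0.61) and Il18 to Il1b (-1.12) passed (adjusted p = 0.0476 each by exact permutation). Il1b to Il1a and Il18 to Il1b had the smallest possible p as counts too, and passed here only because Il1r2 to Il1r1 joined them. Leaving out 1 tumor at a time gave 6 to 8 members higher, 1 lower, 2058 to 2904 of all genes higher and 1303 (without shNT tumor 3) to 2401 lower. The ratios then lay at -0.34 to -0.19 for Il1rn to Il1b, 0.83 to 1.13 for Il1b to Il1a, 0.45 to 0.73 for Il1r2 to Il1r1, -1.36 to -0.58 for Il1rl1 to Il33 and -1.24 to -1.05 for Il18 to Il1b, where the smallest possible p is 0.0571. Among the 9 members depth limits Il33 most, with 14 to 53 counts in shNT tumors.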

Other observations

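Markers of group 2 innate lymphoid cells and eosinophils, which are also known to respond to IL-33, were sparse. Of 11 such genes only Rora and Il7r passed the filter, and both rose, but both are also expressed by T cells. Il7r, a cytokine receptor chain, stood at 31.4 ± 7.09 CPM in shXBP1 and 9.13 ± 1.06 CPM in shNT tumors (SD, n = 4 each, edgeR adjusted p = 2.29e-05), and Rora, a nuclear receptor, at 6.37 ± 2.0 CPM in shXBP1 and 2.42 ± 1.02 CPM in shNT tumors (adjusted p = 0.00603). Il13 had 44 counts over the shXBP1 tumors and 8 over the shNT tumors, Il5 had 24 over the shXBP1 tumors and 10 over the shNT tumors, Siglecf had 60 over the shXBP1 tumors and 12 over the shNT tumors, and Epx had 0 in both groups. These were below the filter and were not tested.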
